A study of Homo sapiens with 12 samples.

Results

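LOUCY is a human T-ALL cell line, labelled as precursor T-cell, genotype WT, with low STAT5 activation. The peaks described here are the autosomal intervals of its STAT5B ChIP-Seq list, 1910 of the 2338 intervals listed for LOUCY and of the 23569 autosomal intervals in the lists of 6 T-ALL lines. The other 428 LOUCY intervals are not on autosomes and are not analysed here. The members were chosen by chromosome alone, and each was placed by its summit, the base with the highest signal in the interval. Chromatin was precipitated with the anti-STAT5B antibody AF1584 from R&D Systems and compared with an input library of the same line made with no antibody. The other lists, used only as a reference, were those of JURKAT, labelled low, and of HSB-2, KOPT-K1, SUP-T13, and DND-41, labelled with high STAT5 activation. Their genotype label is also WT, but it does not record the mutations of each line, since KOPT-K1 carries a driver mutation in *STAT5B* and DND-41 mutations in *IL7R* and *PTPRC*. Each line had 1 STAT5B library, so the values have no replicates and no test between lines was made. Shares are given with exact (Clopper-Pearson) 95% intervals, which cover counting error only, and the depth of the libraries is unknown because the lists hold no read counts.

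STAT5A and STAT5B are transcription factors that cytokine receptors activate through JAK kinases. After phosphorylation on a tyrosine they pair, enter the nucleus, and bind a short palindrome called GAS, TTCNNNGAA, often in promoters and introns of cytokine-responsive genes. In developing thymocytes this pathway carries survival signals from the interleukin receptors, and T-ALL is a leukemia of such cells. LOUCY is widely used as a model of early T cell progenitor leukemia, an immature form of the disease. A peak list carries no expression values, so the cell type in the label could not be checked against its markers.

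The autosomal LOUCY intervals lay almost entirely on chromosomes 1 and 2. Chromosome 1 held 1655 and chromosome 2 held 242, together 99.3% (98.8 to 99.6), and the other 13 lay on chromosomes 3, 4, 5, 7, 10, and 16. Of those 13, 6 were on chromosome 10. On chromosome 1 the intervals ran from position 33171752 to 204681541 of GRCh38 and covered 73.6% of that stretch. On chromosome 2 they ran from 21086237 to 225542752 and covered 96.3%, and the parts of both chromosomes outside these stretches held none. The coverage of chromosome 1 was uneven. Among bins of 10 Mb wholly inside the stretch it was between 12.4%, from 40 to 50 Mb, and 100%, from 130 to 140 Mb. The latter bin lay inside a single interval of 18.0 Mb, from 125188792 to 143179874, with a fold enrichment of 1.67. The bin from 190 to 200 Mb, covered to 17.2%, held 247 summits, and that from 60 to 70 Mb, covered to 96.8%, held 31. How the peak caller was set is not given in the sources used here, and whether its settings, the alignment, or an incomplete list set this restriction and the length of the intervals was not tested. Shares and coverage therefore describe the listed stretches and not the genome.

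Interval length spanned from 2671 bp to 84.1 Mb, with a median of 10520 bp and quartiles of 4545 and 31511 bp. The 37 intervals longer than 1 Mb, 1.94% of the list, held 75.3% of the 335 Mb covered. In contrast, the 530 intervals of up to 5 kb held 0.556% of it. The longest lay on chromosome 2 from 89841056 to 173960281, and the next longest, of 56.9 Mb, ended at 89833353, shortly before it. Gaps between neighbouring intervals were short. On both chromosomes the shortest gap was 2672 bp, close to the shortest interval, and the median gaps were 10646 bp on chromosome 1 and 10564 bp on chromosome 2.

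Enrichment over input was low in most intervals. The fold enrichment had a median of 1.72 (95% interval of the median 1.71 to 1.72), with quartiles of 1.63 and 1.82, and 1676 intervals (87.7%) were under 2-fold. The median −log10 q, the significance the peak caller assigned after correction, was 2.24, and 816 intervals (42.7%) were under 2. Only 128 intervals reached a −log10 q of 5 and 25 reached 10. Longer intervals had higher summits. The summit is the highest base of its interval, so a longer interval offers more bases for a high value. How much of the trend this gives was not tested. The median fold enrichment was 1.66 in the 530 intervals of up to 5 kb, 1.70 in the 749 of 5 to 20 kb, 1.79 in the 411 of 20 to 100 kb, 2.02 in the 183 of 100 kb to 1 Mb, and 2.20 in the 37 over 1 Mb. Across the 1910 intervals the rank correlation of length with fold enrichment was 0.50 and with −log10 q 0.63, a description only, since the intervals share the same libraries. In the other lists the correlation of length with fold enrichment was between 0.45 (KOPT-K1) and 0.61 (SUP-T13). Among intervals of up to 5 kb, 4 reached a −log10 q of 5, against 22 of those over 1 Mb. The summit lay within 100 bp of an end of its interval in 313 intervals (16.4%, 14.8 to 18.1).

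Several of the strongest summits lay close to unsequenced stretches of the reference. The highest −log10 q, 163, belonged to an interval on chromosome 16 from 34599131 to 46381919, of which 69.2% is unsequenced. Its summit lay 203369 bp from the nearest protein-coding start site, that of *SHCBP1*, which encodes an adaptor that binds the signaling protein SHC. The second was the 84.1 Mb interval of chromosome 2, of which 1.61% is unsequenced. It had 5.49-fold enrichment, a −log10 q of 90.6, and its summit in intron 1 of *SH3RF3*, a gene for an SH3 domain protein with a ubiquitin ligase fold. The highest fold enrichment, 5.67, was found on chromosome 5 from 49635808 to 49651934, 765916 bp from the start site of *EMB*, the gene of the adhesion protein embigin. On chromosome 1 the interval from 121601167 to 125075967 had a fold enrichment of 4.01, and the nearest start site, 588324 bp away, was that of *SRGAP2C*, a human-specific duplicate of a gene that acts in neuronal migration. On chromosome 10, intervals of 3.13 and 3.27 kb had fold enrichments of 3.69 and 3.65, although the nearest genes, the zinc finger genes *ZNF37A* and *ZNF33B*, started 1889913 and 2001232 bp away.

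The sequence at 3 of these summits is shown because it bears on how uniquely reads can be placed there. Each window is the summit with 50 bases to either side, on the plus strand of GRCh38 and outside annotated exons of protein-coding genes, with the central 31 bases in capitals. The windows are chr16:46380834-46380934 near *SHCBP1*, chr5:49646032-49646132 near *EMB*, and chr10:40593385-40593485 near *ZNF33B*.
SHCBP1 interval: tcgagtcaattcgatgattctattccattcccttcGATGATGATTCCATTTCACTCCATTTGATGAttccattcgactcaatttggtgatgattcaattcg
EMB interval: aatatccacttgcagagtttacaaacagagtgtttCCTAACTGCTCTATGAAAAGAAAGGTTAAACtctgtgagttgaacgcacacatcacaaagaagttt
ZNF33B interval: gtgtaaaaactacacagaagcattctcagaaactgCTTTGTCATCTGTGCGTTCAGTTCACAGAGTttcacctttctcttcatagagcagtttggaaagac

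The central 31 bases occurred 6449 times in the reference for the *EMB* interval and 408 times for the *ZNF33B* interval, counting both strands. Those of the chromosome 1 interval near *SRGAP2C* occurred 10486 times. Those of the *SHCBP1* interval occurred once, which counts exact copies only and does not show that reads can be placed uniquely there. Outside chromosomes 1 and 2, 11 of 13 summits (84.6%, 54.6 to 98.1) had a central sequence with more than 1 copy, against 83.3% (62.6 to 95.3) of windows 1000 bp to either side. Over all LOUCY summits the share was 17.9% (16.2 to 19.7), against 15.4% (14.3 to 16.6) in windows 1000 bp to either side, so the intervals overlapped. Among the 128 summits with a −log10 q of at least 5 it was 28.9% (21.2 to 37.6), against 27.3% (21.9 to 33.2) in their flanks. The part that read placement in repeats had in these peaks was not tested.

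Not all of the 10 strongest peaks were of this kind. The fourth by −log10 q, at 27.8, lay in intron 1 of *CERKL*, which encodes a ceramide kinase-like protein of the retina, inside an interval of 9.07 Mb. The eighth lay in exon 1 of *MAIP1*, a mitochondrial matrix protein gene, 27 bp downstream of its start site and close to that of *TYW5*, a tRNA-modifying enzyme gene. The ninth lay 60480 bp from *FCGR2A*, which encodes an Fc receptor for IgG, with a fold enrichment of 3.53, and the tenth in the gene *NABP1*, whose product binds single-stranded DNA. At each of these 4 summits the central 31 bases occurred once in the reference. Of the 10 strongest by fold enrichment, those not yet named lay at *NBPF10* and *NOTCH2NLA* (3.20) and 663747 bp from *BRINP3*, a gene of the nervous system (3.09).

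With respect to genes, LOUCY summits were distributed much like positions 20 kb away from them. Summits were assigned first to promoters, defined as 2 kb to either side of any annotated start site of a protein-coding gene, then to exons, introns, and distal sequence. Promoters held 213 summits (11.2%, 9.77 to 12.6), against 11.9% of positions moved 20 kb to either side. Introns held 820 (42.9%, 40.7 to 45.2), against 41.6% of moved positions, and exons 67 (3.51%, 2.73 to 4.43), against 3.74%. Distal summits comprised 420 within 50 kb of a gene (22.0%, 20.2 to 23.9) and 390 farther away (20.4%, 18.6 to 22.3), against 22.3% and 20.5%. In each class the share of moved positions lay inside the interval of the summits. Compared with all bases of the same chromosomes, weighted by the number of summits on each, promoters (8.90%), exons (2.71%), and introns (38.4%) held more summits and sequence over 50 kb from any gene (28.5%) held fewer. Promoter summits had a median fold enrichment of 1.76 and a median interval of 18550 bp, and summits over 50 kb from any gene had 1.67 and 6774 bp.

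A promoter summit was found at 212 of the 19111 autosomal protein-coding genes (1.11%), and 577 genes (3.02%) had a summit in the promoter window or the gene body. Because the autosomal intervals barely leave chromosomes 1 and 2, the fairer reference is the 2306 genes that start between the first and last intervals of these chromosomes. Of them 574 (24.9%) had a summit in the promoter window or body, and 1424 (61.8%) had their canonical start site inside an interval, 38.5% on chromosome 1 and 90.7% on chromosome 2. Of the 212 promoter genes, 168 (79.2%) also had a promoter summit in at least 1 other list. SUP-T13 shared 93 of them (43.9% of the LOUCY genes and 18.5% of its own), JURKAT 88 (41.5% and 20.4%), DND-41 65 (30.7% and 14.7%), HSB-2 55 (25.9% and 23.2%), and KOPT-K1 7 (3.30% and 7.37%). The lists share the same restriction to a few chromosomes, KOPT-K1 least, and whether these overlaps exceed what that gives was not tested.

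Although promoters as a class did not stand apart, a minority of the strong summits sat close to start sites. Of the 128 summits with a −log10 q of at least 5, 17 (13.3%, 7.93 to 20.4) lay within 100 bp of an annotated start site, against 2 of 256 moved positions (0.781%, 0.0948 to 2.79). With canonical start sites only, the share of summits was 7.03%. Within 300 bp the numbers were 24 (18.8%, 12.4 to 26.6) and 5 (1.95%, 0.637 to 4.50). Among the 1782 weaker summits, 1.18% lay within 100 bp, the same share as of their moved positions. Within 1000 bp the share of the strong summits was still above that of their moved positions, at 23.4% (16.4 to 31.7) against 10.2% (6.74 to 14.5), and within 2000 bp the intervals overlapped, at 26.6% (19.1 to 35.1) against 14.5% (10.4 to 19.4). Among the 91 strong summits whose central 31 bases occur once in the reference, 15 (16.5%, 9.53 to 25.7) lay within 100 bp, against 0.549% of moved positions. Of the 128 strong summits, only 50 lay in intervals of up to 100 kb, and a move of 20 kb can stay inside a longer one. These distances were examined after the positions of the strongest peaks had been seen.

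**Figure D1:**
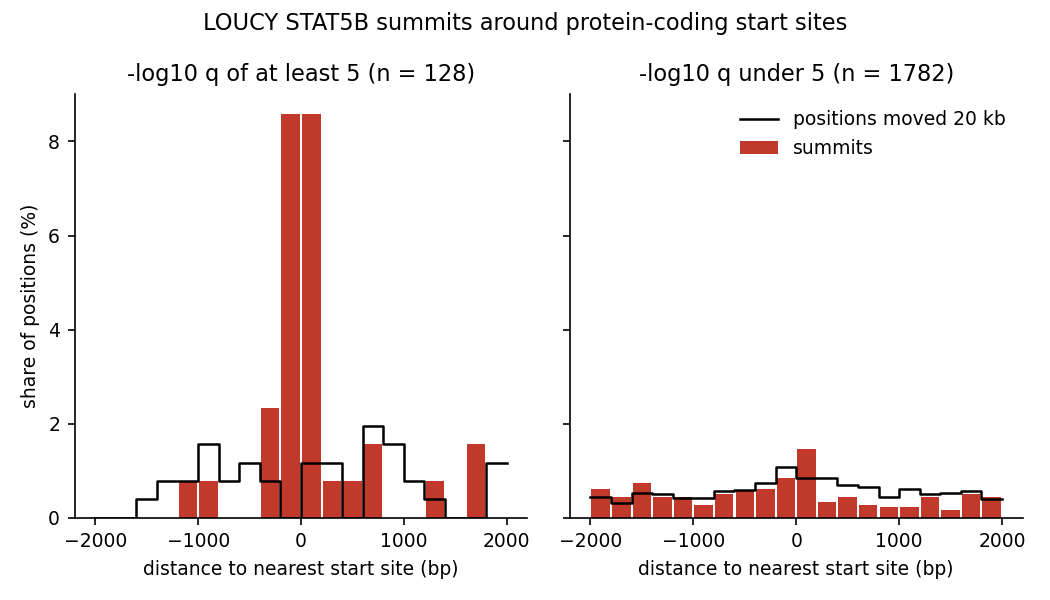
Share of LOUCY summits (red bars, percent per 200 bp) by distance to the nearest protein-coding start site in bp, negative upstream, for the 128 summits with a −log10 q of at least 5 (left) and the 1782 others (right), with positions moved 20 kb as a black line. The strong summits peak at the start site, with 8.59% in each of the bins on either side of it, and the others stay near their moved positions.

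Strength and interval length went together here and could be separated only in part. Of the 220 summits in intervals over 100 kb, 27 (12.3%, 8.25 to 17.4) lay within 300 bp of a start site, against 1.36% (0.502 to 2.94) of moved positions. Among strong summits in intervals of up to 100 kb the numbers were 5 of 50 (10.0%, 3.33 to 21.8) and 3.00% (0.623 to 8.52), and among weaker summits in intervals over 100 kb 8 of 142 (5.63%, 2.46 to 10.8) and 1.41% (0.385 to 3.57), both with overlapping intervals. Within 1000 bp the former still overlapped, at 18.0% (8.58 to 31.4) against 16.0% (9.43 to 24.7). The weaker summits in intervals over 100 kb were then above their moved positions, at 12.0% (7.13 to 18.5) against 3.87% (1.95 to 6.82). In intervals of 5 to 20 kb the relation was the opposite at larger distances: 8.68% of summits (6.76 to 10.9) lay within 2000 bp of a start site, against 13.8% of moved positions (12.0 to 15.6). The moved positions are not the same reference at each length. A move of 20 kb always leaves an interval of up to 20 kb but can stay inside one over 100 kb. Within 1000 bp of a start site lay 8.61% of moved positions from intervals of 5 to 20 kb and 4.77% from those over 100 kb. How much of these contrasts the reference sets was not tested. In the other lists, the share of summits with a −log10 q of at least 5 that lay within 100 bp of a start site was above that of moved positions in HSB-2 (10.7% against 0.701%), SUP-T13 (8.57% against 0.476%), and DND-41 (7.56% against 0.999%). In JURKAT (6.84% against 1.28%) and KOPT-K1 (4.50% against 0.901%) the intervals overlapped, although within 300 bp JURKAT was above too (15.4% against 3.42%). The weaker summits of SUP-T13 were above as well within 100 bp, at 2.46% (2.01 to 2.98) against 0.976% (0.776 to 1.21). Those of KOPT-K1, DND-41, HSB-2, and JURKAT overlapped their moved positions at that distance. Differences between LOUCY and these lists were not tested.

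The 34 promoter summits with a −log10 q of at least 5 served 43 genes. Of these summits, 7 (20.6%) had start sites of genes on both strands within 2 kb, against 6.10% of all 213 promoter summits, which include the 34. The *MAIP1* and *TYW5* summit had the highest −log10 q, 19.2, with a fold enrichment of 2.84. It was followed by a summit 15 bp upstream of *PRKRA*, which encodes an activator of the RNA-dependent kinase PKR and is paired with the hearing gene *PJVK* (fold enrichment 2.77). A summit shared by *NBPF10*, of the neuroblastoma breakpoint family, and *NOTCH2NLA*, a human-specific partial copy of *NOTCH2*, came next at 3.20. Chromatin and transcription genes among the highest 15 were *GTF3C3*, a subunit of the RNA polymerase III factor TFIIIC (45 bp upstream, 2.56), *INO80D*, a subunit of the INO80 remodeler (387 bp downstream, 2.32), and *NAB1*, a corepressor of EGR factors (612 bp downstream, 2.01). *NHEJ1* encodes an end-joining factor that takes part in V(D)J recombination, and its summit lay 39 bp from a start site with a fold enrichment of 2.53.

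A signaling gene of T cell interest was among them. The summit of *NOTCH2*, a receptor related to the *NOTCH1* oncogene of T-ALL, lay 16 bp from a start site in exon 1, enriched 2.72-fold at a −log10 q of 10.6, in an interval of 1128 kb on chromosome 1. It was within 1 kb of summits of HSB-2 and JURKAT. The central 31 bases at *NOTCH2* occurred 5 times in the reference, as did those at the summits of *NBPF10* with *NOTCH2NLA* and of *NOTCH2NLC*, so reads at these summits may be split among copies. Other genes of the highest 15 were *YPEL5*, *PNKD* with *AAMP*, *NOTCH2NLC*, the Wnt ligand gene *WNT10A*, and *CELF3*, which encodes an RNA-binding protein. Their fold enrichments were between 2.16 (*WNT10A*) and 2.77 (*YPEL5*).

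Promoter windows from the highest 15 are shown as examples of base composition. Each has the summit with 50 bases to either side, on the plus strand of GRCh38 and outside annotated exons of protein-coding genes. Capitals mark a GC box (GGGCGG) on either strand. The windows are chr2:206085737-206085837 in intron 1 of *INO80D*, a minus-strand gene, chr1:151716891-151716991 upstream of *CELF3*, minus strand, and chr1:149390321-149390421 upstream of *NOTCH2NLC*, plus strand.
INO80D: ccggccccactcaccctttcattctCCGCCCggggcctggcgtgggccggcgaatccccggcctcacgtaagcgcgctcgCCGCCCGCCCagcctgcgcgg
CELF3: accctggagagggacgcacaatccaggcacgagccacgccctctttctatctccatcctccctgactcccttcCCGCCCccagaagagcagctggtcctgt
NOTCH2NLC: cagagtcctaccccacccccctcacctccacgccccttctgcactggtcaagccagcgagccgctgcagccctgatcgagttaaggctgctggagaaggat

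The *INO80D* window had a GC content of 77.2% with 15 CpG dinucleotides and 3 GC boxes, overlapping matches included, whereas *CELF3* had 62.4% with 1 GC box and *NOTCH2NLC* 63.4% with none. Other promoter windows of strong summits were lower, such as those of *NDUFB3* (43.6%), *H2AC18*, and *TTF2* (both 38.6%). Over the 128 strong summits the mean GC content was 49.6% (SD 14.9 over windows), against 44.7% (SD 10.7) in windows 1000 bp to either side. Windows of at least 60% GC made up 28.1% of the former and 8.30% of the latter. In the 1781 weaker summits with a sequenced window the means were 42.2% and 41.2%. The GC box, present in 1.61% of all windows of this length weighted by chromosome, was found at 11.7% (6.71 to 18.6) of the 128 strong summits, against 3.95% (1.91 to 7.15) of their flanks, with overlapping intervals. At summits in intervals over 100 kb the shares were 9.13% (5.67 to 13.8) and 3.21% (1.77 to 5.33). At the 75 summits within 300 bp of a start site they were 22.7% (13.8 to 33.8) and 4.67% (1.90 to 9.38). In neither group did the intervals overlap. The 75 summits were chosen for closeness to a start site, and their flanks lie farther from that site. Whether any positions so chosen would give the same contrast was not tested. Over all LOUCY summits, however, the GC box share of 2.62% (1.95 to 3.44) overlapped that of the flanks, 1.73% (1.34 to 2.20).

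The STAT5 palindrome was not more frequent at LOUCY summits than beside them. TTCNNNGAA, which reads the same on both strands, lay within 50 bp of 57 of 1909 summits with a sequenced window (2.99%, 2.27 to 3.85), against 3.15% (2.61 to 3.75) of flanking windows and 3.59% of all windows of that length, weighted by chromosome. In steps of 100 bp out to 2000 bp on either side the share stayed between 2.52% and 4.19%, with no rise at the summit. The form TTCYNRGAA, where Y is C or T and R is A or G, and which is part of the former, gave 1.26% (0.807 to 1.86) and 1.18% (0.862 to 1.58). The peaks with the palindrome were not stronger: their median fold enrichment was 1.70, against 1.72 for the 1853 others, and their median intervals were 8758 and 10592 bp. With a −log10 q of at least 5 the share was 3.91% (5 of 128, 1.28 to 8.88), against 4.74% (2.47 to 8.14) in the flanks, and at promoters 4.23% (9 of 213, 1.95 to 7.87), against 2.82% (1.46 to 4.87), both with overlapping intervals. In the other lists, searched the same way, the palindrome was above the flanks in DND-41 (10.3% against 3.76%) and HSB-2 (7.55% against 4.55%), whereas the intervals overlapped in KOPT-K1 (4.32% against 4.41%), JURKAT (3.18% against 3.20%), and SUP-T13 (3.72% against 3.18%). In the form TTCYNRGAA, SUP-T13 was above as well, at 1.93% (1.54 to 2.38) against 1.03% (0.832 to 1.27).

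Motifs of other T cell factors behaved alike. Motifs for ETS factors (CCGGAAG), RUNX (TGTGGTT), the zinc finger family of GATA proteins (AGATAA), basic helix-loop-helix factors (the E-box, CAGCTG), and AP-1 (TGANTCA), as well as the CCAAT box, were searched on both strands in the same windows. RUNX1 and GATA3 are needed for T cell development, and E proteins bind the E-box in thymocytes. None of them differed from the flanks over all LOUCY summits: RUNX gave 1.57% against 1.47%, GATA 6.50% against 7.76%, the E-box 2.99% against 3.62%, AP-1 2.36% against 3.22%, ETS 0.157% against 0.262%, and the CCAAT box 14.1% against 14.8%, each with overlapping intervals. The corresponding shares of all windows were 1.84%, 7.34%, 3.60%, 3.04%, 0.236%, and 14.5%. In intervals over 100 kb the CCAAT box was below the flanks, at 7.76% (4.59 to 12.1) against 16.1% (12.7 to 19.8). A match or its absence says only which letters lie in a window.

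Among the 10 strongest summits with a GAS palindrome, 4 lay at promoters. The sites are shown with 10 bases to either side on the plus strand of GRCh38, with the palindrome in capitals, for the promoters, for *TGFBR3*, which has the only one of the 10 in the body of a gene outside a promoter, and for the strongest, on chromosome 10. The windows are chr2:196799712-196799740 at *GTF3C3*, in an exon near its start, chr1:63322443-63322471 at *FOXD3*, chr1:147928609-147928637 at *GPR89B*, chr1:77711875-77711903 at *USP33*, chr1:91717383-91717411 in intron 10 of *TGFBR3*, and chr10:40593397-40593425 nearest to *ZNF33B*.
GTF3C3: accggcgtccTTCTGGGAAactcgcccgg
FOXD3: ttgttgacaaTTCCCTGAAccaacttgag
GPR89B: tccgcctcccTTCACCGAAtcgccctctc
USP33: agaattaatgTTCTAGGAAgtttgtttct
TGFBR3: atacgttttaTTCCAGGAAtctttttttt
ZNF33B: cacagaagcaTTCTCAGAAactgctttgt

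The *GTF3C3* palindrome was centred 44 bp from the summit, in an interval of 1250 kb with a −log10 q of 13.9. *FOXD3* encodes a factor of pluripotent and neural crest cells, and its summit lay 154 bp upstream of a start site with a fold enrichment of 1.93. *USP33*, a deubiquitinase gene, had its summit 4 bp from the centre of the palindrome, in intron 20 and 1615 bp downstream of the start of a shorter transcript, with a fold enrichment of 1.96 in an interval of 2.98 kb. *GPR89B*, which encodes a Golgi ion channel, had 1.92. *TGFBR3* encodes betaglycan, a co-receptor of TGF-beta, and its summit had 2.15. The *ZNF33B* match lies in the window shown above, beside the central bases whose copies were counted. The others lay near *BSND*, *RWDD3*, *OR6K3*, and *IVNS1ABP*, between 2717 and 688892 bp from a start site, with fold enrichments of 1.94 to 2.29.

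Per Mb, start sites of genes were denser in the gaps between LOUCY intervals than inside them. In the covered stretch of chromosome 1, the gaps were 26.4% of the sequence but held 786 of 1279 canonical start sites (61.5%). That is 17.4 start sites per Mb of gap and 3.91 per Mb of interval, a ratio of 4.44 (exact 95% interval 3.96 to 4.98). Without the intervals over 1 Mb the ratio was 2.97 (2.63 to 3.35). On chromosome 2, where gaps were 3.74% of the stretch, it was 2.66 (2.13 to 3.28), but 1.18 (0.89 to 1.56) without the intervals over 1 Mb, so there the difference rested on the long intervals. On chromosome 1, 443 of the 1654 gaps (26.8%) held a start site, and these were longer, with a median of 20.1 kb against 7.40 kb for the gaps without one. This comparison was chosen after the intervals had been seen.

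Coverage fell close to the start sites themselves. On chromosome 1, 38.5% (35.9 to 41.3) of the 1279 start sites lay inside an interval, against 60.6% (57.9 to 63.3) of positions 20 kb upstream and 58.4% (55.6 to 61.1) of positions 20 kb downstream. At 5 kb the shares were still 40.6% and 42.1%, and at 10 kb they were 59.8% and 56.3%. On chromosome 2 the dip was shallow, from 94.2% at 20 kb upstream to 90.7% (88.7 to 92.4) at the start site. In the stretch of chromosome 1 that LOUCY, JURKAT, SUP-T13, HSB-2, and DND-41 all cover, with 830 start sites, coverage at the start site and 20 kb upstream was 50.1% and 75.9% in LOUCY, 31.6% and 50.8% in HSB-2, 29.3% and 40.4% in JURKAT, 11.2% and 21.4% in DND-41, and 80.0% and 85.2% in SUP-T13. The ratio of start sites per Mb in gaps to intervals was 7.76 (6.75 to 8.91) there in LOUCY and between 1.86 and 2.54 in the other 4 lists. In the stretch of chromosome 2 that all 6 lists cover, it was 9.96 (6.63 to 14.41) in LOUCY, with 29 start sites in 0.644 Mb of gaps, 1.07 in KOPT-K1, and between 3.71 and 5.84 in the others. How far the depth or input of each library sets these values was not tested.

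**Figure D2:**
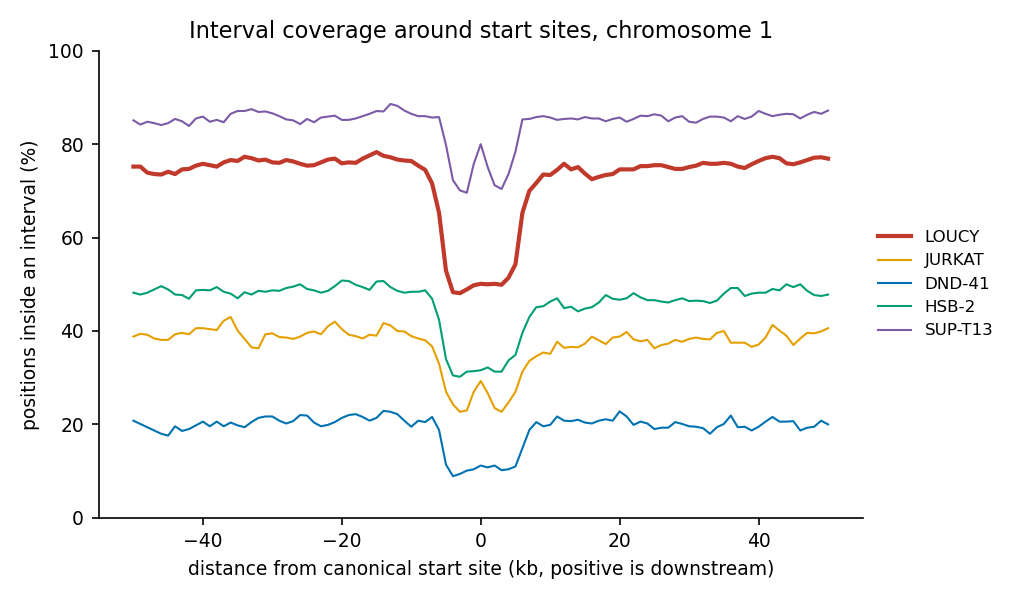
Share of positions that lie inside an interval, in percent, by distance in kb from 830 canonical start sites of chromosome 1, with 1 line per STAT5B list. Coverage falls within about 10 kb of the start site in all 5 lists, in LOUCY from 75.9% at 20 kb upstream to 50.1% at the start site.

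On chromosome 1 the genes left in gaps differed in promoter type. Promoter sequences from RefSeq on GRCh38 were matched to 1059 of the 1279 genes of chromosome 1 (82.8%) and divided by their CpG content, the observed over expected number of CpG dinucleotides. CpG-rich promoters, with a value of at least 0.6, are typical of broadly expressed genes, and CpG-poor ones of tissue-restricted genes. Of 640 CpG-rich promoters, 166 (25.9%, 22.6 to 29.5) had their start site inside an interval, against 241 of 419 CpG-poor ones (57.5%, 52.6 to 62.3). On chromosome 2 the shares were 88.6% (85.9 to 90.9) of 647 and 94.3% (90.4 to 96.9) of 228, with overlapping intervals. The whole intervals of chromosome 1 had a GC content of 39.6% and the gaps 42.0%. Gene length did not separate the groups on chromosome 1, with medians of 22.7 kb for genes that start inside an interval and 25.1 kb for those in gaps.

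Of 12 gene families, chosen after values were seen and given as a description only, the share of start sites inside an interval varied widely. On chromosome 1, where the share of all genes was 38.5%, this held for all 19 late cornified envelope genes, which encode proteins of the skin barrier, and all 12 neuroblastoma breakpoint family genes. It also held for 13 of 17 olfactory receptor genes, 7 of 8 Fc receptor-like genes, 5 of 7 guanylate binding protein genes, 10 of 16 S100 genes, and 6 of 11 histone genes. None of the 5 *CD1* genes, which encode lipid-presenting molecules of immature thymocytes, started inside an interval. On chromosome 2, where the share of all genes was 90.7%, all 9 genes of the homeobox D cluster, which pattern limbs and trunk, did so. Of the families spread over both chromosomes, the cytosolic ribosomal protein genes had 0 of 3 inside on chromosome 1 and 2 of 3 on chromosome 2, the mitochondrial ones 0 of 6 and 6 of 8, and the proteasome genes 0 of 4 and 1 of 1. A start inside an interval did not mean a summit: the late cornified envelope and homeobox D genes had no summit in a promoter window or body. Neighbouring genes of a family can share an interval, so its members are not independent counts.

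Among genes of known relevance to STAT5 and T cells, 5 lists were followed. They held 179 genes, of which 177 were matched in the annotation and 77 start within the covered stretches of chromosomes 1 and 2. Of these 77, 19 (24.7%) had a LOUCY summit in the promoter window or body, close to the 24.9% of all genes there, and 37 (48.1%) had their start site inside an interval, against 61.8%. Those with a promoter summit included *NOTCH2*, *VAV3*, and *MEF2D*. Of the 38 summits assigned to the 19 genes, 0 had a GAS palindrome within 50 bp, near the 2.99% of all LOUCY summits, and 5 (13.2%) had central 31 bases with more than 1 copy in the reference.

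Of 14 known STAT5 target genes, only *MCL1*, a survival gene, and *GFI1*, a transcriptional repressor gene, start in these stretches, and neither had a summit. Cytokine receptor and JAK-STAT genes had a summit at 6 of 14. They included *IL6R*, the interleukin-6 receptor gene, with the highest of them in intron 1 (fold enrichment 2.20, −log10 q 5.16), *JAK1*, the kinase shared by many cytokine receptors, with summits of 1.74 in intron 4 and 2.14 upstream of the canonical transcript, the latter with 10 copies of its central bases, *IL12RB2* (1.96), *IL23R* with a pair of summits (1.80 and 1.78), and *STAT4* in intron 10 (1.76), which transmits interleukin-12 signals.

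TCR signaling genes had a summit at 7 of 20. *VAV3*, which encodes a guanine nucleotide exchange factor, had 7 summits, all between intron 15 and exon 27, with fold enrichments between 1.54 and 1.88. The central bases of the highest had 10500 copies, and another summit lay 1319 bp from the start of a shorter transcript in intron 19. *CD48*, a ligand of the SLAM family, had a summit of 2.15 in intron 1 with a −log10 q of 5.12, where the central 31 bases had 48 copies. The adhesion receptor gene *CD58* had 3, between 1.50 and 1.63, and *CD247*, the CD3 zeta gene, had 2. *PTPN22*, a phosphatase that restrains TCR signals, *BCL10*, an adaptor to NF-kappaB, and the AP-1 gene *FOSL2* had 1 each, at 1.66, 1.83, and 1.55. In this group only *CD48* reached a −log10 q of 5.

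T-ALL and early T cell progenitor genes had a summit at 4 of 14. After *NOTCH2*, the highest fold enrichment was that of *MEF2D*, a transcription factor gene, with 1.80 in intron 4 near a start site and 1.71 in intron 1. *DNMT3A*, a DNA methyltransferase gene mutated in immature T-ALL, had 5 summits between 1.53 and 1.79, all in introns. *IKZF2*, which encodes the Ikaros family factor Helios, had 4 between 1.49 and 1.74, and that in intron 6 lay within 1 kb of summits of SUP-T13, HSB-2, and DND-41. Other immune genes of the covered stretches had a summit at 2 of 27, *LY9*, a SLAM family receptor gene (2.19, central bases with 7 copies), and *CASP8*, an initiator caspase gene of death receptor signaling (1.47).

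Short intervals locate a signal best, but few of them were strong. Of the 10 intervals of up to 5 kb with the highest −log10 q, 4 lay on chromosome 10 and 1 on chromosome 3, all far from genes, and 1 lay 652673 bp from *H3-7*, with a −log10 q of 9.78 although its fold enrichment was below the median of the list. The remaining 4 lay in gene-bearing sequence. An interval on chromosome 1 had its summit 43518 bp from *JUN*, an AP-1 gene, with a fold enrichment of 1.99. *USP33* is described above. The others lay 8265 bp from *FCRLB*, an Fc receptor-like gene of B cells (1.93), and 150 bp upstream of *KIF3C*, a kinesin gene (1.94).

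Summits of other lists lay near LOUCY summits more often than near moved positions. Within 1 kb of 478 LOUCY summits (25.0%, 23.1 to 27.0) there was a summit of at least 1 other list, against 16.5% (15.4 to 17.7) of positions moved 20 kb to either side. Of these, 390 were near a single other list, 71 near 2, 16 near 3, and 1 near 4. By list, 9.16% were near a JURKAT summit (5.73% of moved positions), 8.64% near SUP-T13 (4.84%), 7.17% near DND-41 (5.00%), 5.34% near HSB-2 (2.38%), and 0.262% near KOPT-K1 (0.105%). All but KOPT-K1 were above their moved positions. Among the 816 LOUCY peaks with a −log10 q under 2 the share was 16.8% (14.3 to 19.5), against 13.4% (11.7 to 15.1), with overlapping intervals.

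The overlap was more frequent among the strong peaks. Of the 128 with a −log10 q of at least 5, 72 (56.2%, 47.2 to 65.0) were near a summit of another list, against 18.4% (13.8 to 23.7) of moved positions. Among the 1782 others the number was 406 (22.8%, 20.9 to 24.8), against 16.4% (15.2 to 17.6), also above. JURKAT and HSB-2 were each near 34 of the 128 strong summits (26.6%), against 5.47% and 2.73% of moved positions, and SUP-T13 near 28 (21.9%), against 4.69%. DND-41, whose summits carried the GAS palindrome most often, was near 14 (10.9%, 6.11 to 17.7), against 7.42% (4.53 to 11.3), with overlapping intervals. It was seen at start sites and away from them: 18 of the 24 strong summits within 300 bp of a start site (75.0%, 53.3 to 90.2) and 54 of the 104 others (51.9%, 41.9 to 61.8) were near a summit of another list, against 20.8% and 17.8% of their moved positions. Among weaker summits within 300 bp of a start site, the number was 23 of 51 (45.1%, 31.1 to 59.7), against 21.6% (14.0 to 30.8). *INO80D* and *NOTCH2NLC* were near summits of HSB-2, SUP-T13, and JURKAT, *MAIP1* near those of SUP-T13, HSB-2, and DND-41, and *GTF3C3*, *YPEL5*, and *CERKL* near none.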

How the data were processed

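Values were taken from the STAT5B peak list of LOUCY as deposited. To make it, the authors passed reads through PRINSEQ-lite, mapped the remainder on GRCh38 (BWA 0.7.15-r1140, SAMtools 1.4), and ran MACS2 with the input of LOUCY as control, with options not given in the sources used here. Each deposited peak has a fold enrichment over input (a linear ratio), a −log10 p and a −log10 q, and a score that the authors' peak caller derives from the −log10 q; the −log10 p and the score were not used. Because 1 library per line was called separately, no replicate check was possible.

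Genes were protein-coding genes of GENCODE 44, and coordinates count from 1. Named genes were those of the 5 lists with a summit, and those of the 10 peaks highest by −log10 q, by fold enrichment, by −log10 q with a GAS palindrome, and by −log10 q up to 5 kb, with the 15 highest promoter summits. Some genes and sequences that this rule names are not reported here. The members and lists were chosen with earlier results of these data known. Alternatives covered the peak threshold, interval length, promoter window, motif, and distances. Python 3.11.15, NumPy 2.4.6, SciPy 1.17.1, pysam 0.24.0, and matplotlib 3.10.9 were used, and the gene assignment was tested on simulated data, where all 200 planted promoter genes among 600 were recovered with 0 others.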

Additional observations from a re-analysis of the deposited data

How the results depend on the processing

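Under the alternative settings, 44 of 60 values moved beyond their 95% interval or, for counts, by over 1.5 times, and 16 did not. A −log10 q of at least 5 left 128 peaks, 92.2% of them on chromosomes 1 and 2, with a median fold enrichment of 2.24, promoter summits at 0.225% of genes, 26.6% of summits at promoters, 29.7% in introns, and 38.3% distal, a GAS palindrome in 3.91% of summits and 4.74% of flanks, 56.2% of summits and 18.4% of moved positions near another list, and 5 genes of the fixed lists. Keeping intervals of up to 5 kb left 530 peaks, a median fold enrichment of 1.66, promoter summits at 0.225% of genes, 8.87% at promoters and 48.1% distal, 19.2% of summits and 13.9% of moved positions near another list, and 5 list genes. Without chromosomes 1 and 2 the median fold enrichment was 2.51. Genes with a promoter summit were 0.717% of all genes with a 1 kb window, 1.96% with 5 kb, 0.528% with the canonical transcript only, where 4.76% of summits were at promoters and 47.5% in introns, and 9.23% when any base of an interval counted. GAS shares were 6.08% and 6.55% of flanks within 100 bp, and 1.26% and 1.18% as TTCYNRGAA. Summits and moved positions near another list were 16.6% and 8.72% within 500 bp and 59.5% and 55.3% within 5 kb. The fixed lists had 4 genes by promoter only and 39 within 50 kb. Settings chosen after seeing the data changed the share of strong summits within 100 bp of a start site to 1.99% with all peaks and 7.03% with canonical start sites only. They changed the ratio of start sites in gaps to intervals of chromosome 1 to 2.97 without intervals over 1 Mb and 7.76 in the stretch shared by the lists, and gave 2.66 on chromosome 2, 1.18 there without intervals over 1 Mb, and 9.96 there in the stretch shared by the lists, where the chromosome and another setting changed together. Fewer peaks, other transcripts, or wider and narrower windows are built into these settings, and other causes were not tested. No paired analysis was possible because each line has 1 STAT5B library. The unknown depth limits every count of peaks and genes, and a missing peak says nothing about binding.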
